A study of Mus musculus with 4 samples.

Results

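The Hox genes of hindpaw epidermis were taken as every gene whose only symbol on the array platform is Hox followed by a cluster letter, a to d, and a paralogue number. This gave 37 genes among the 19938 genes with a single symbol, 10 of cluster Hoxa, 9 of Hoxb, 9 of Hoxc and 9 of Hoxd, each read by 1 probe set. Hoxb8 is not among them, because its probe set carries the symbol of Hoxb7 as well. The samples came from mice of 2 transgenic lines in which the keratin 14 promoter, active in basal keratinocytes, drives either noggin, a secreted protein that binds and blocks bone morphogenetic proteins, or BMP4, one of those proteins. Glabrous (hairless) hindpaw skin was sectioned, the epidermis was cut out by laser in 8 to 10 strips per animal, and each array holds the pooled RNA of 3 animals. With 6 animals a line, this makes 2 arrays for noggin and 2 for BMP4. The labels give neither age nor sex nor strain, and no non-transgenic skin, forelimb skin or trunk skin was analysed here. All differences below are noggin minus BMP4 on the log2 scale, so a positive value is higher in noggin epidermis.

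Hox genes encode homeodomain transcription factors that give cells their position along the body axes. In mammals they lie in 4 clusters, and within a cluster the order of the genes, numbered by paralogue group, follows the order in which they are used from the front of the embryo to the back and from the shoulder or hip out to the digits. Adult skin keeps part of this pattern: fibroblasts of the hands and feet express posterior genes such as Hoxa13, and Hoxc13 is needed in the epithelium for normal hair and nails. HOX proteins bind DNA together with the TALE homeodomain proteins PBX, MEIS and PKNOX.

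**Figure D1:**
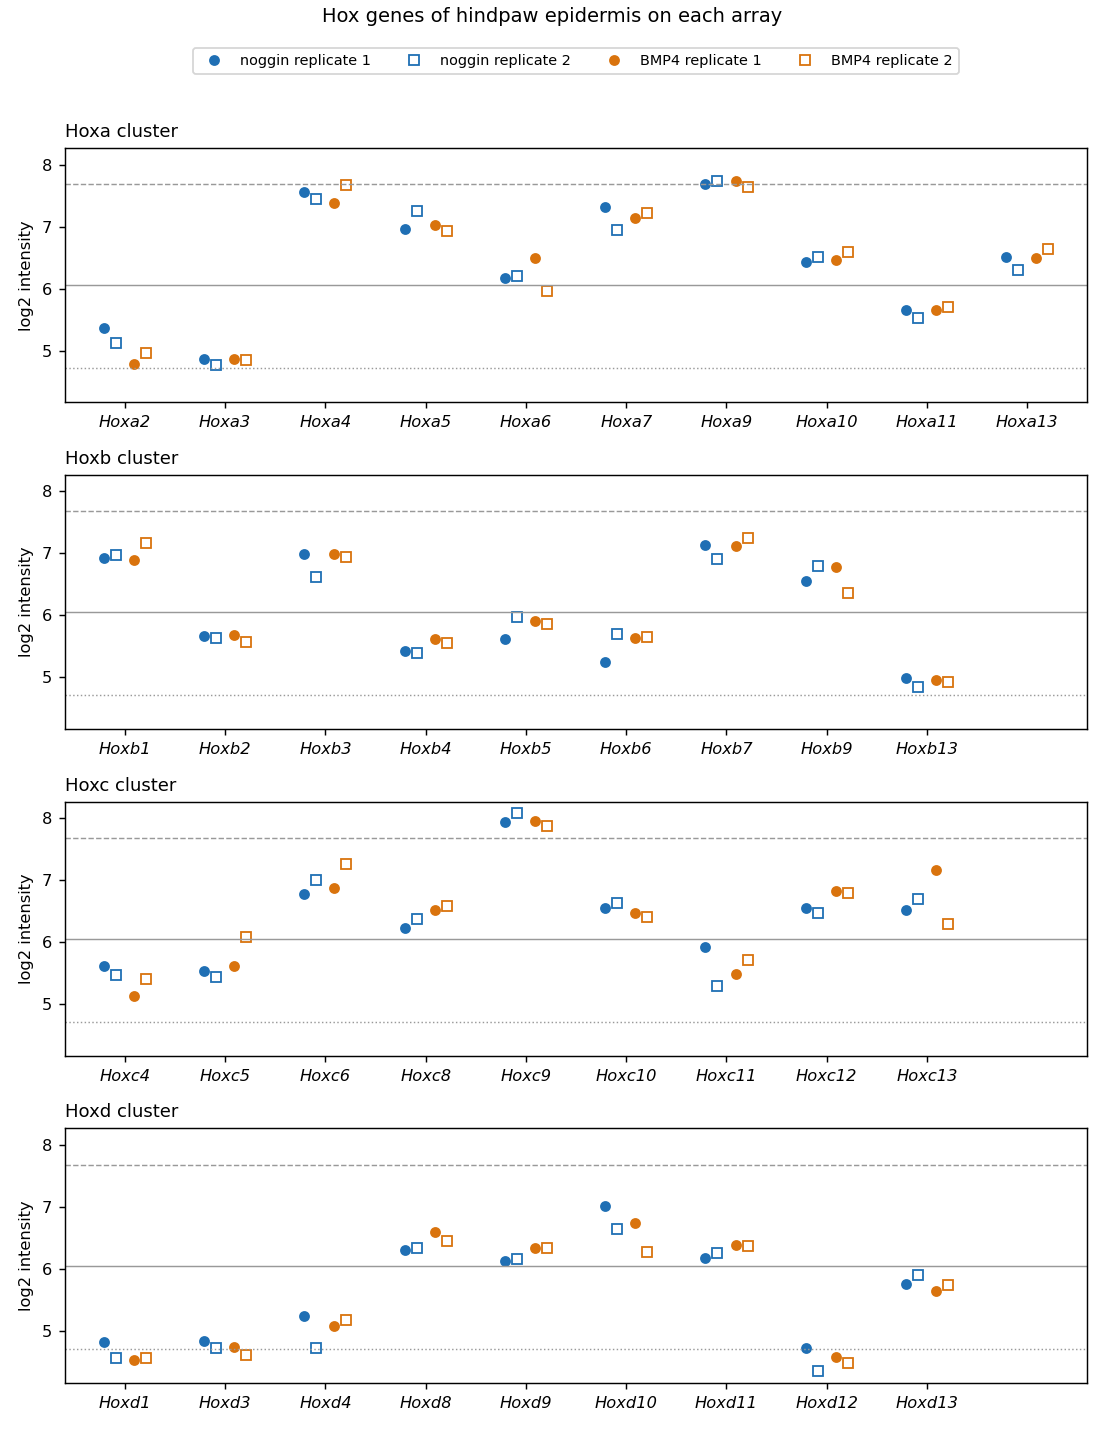
Log2 intensity (vertical axis) of each of the 37 Hox genes on the 2 noggin arrays (blue) and 2 BMP4 arrays (orange), by cluster and paralogue number; circles are replicate 1 and squares replicate 2. Grey lines give the lower quartile (dotted), median (solid) and upper quartile (dashed) of all probe sets, averaged over the arrays; Hoxc9 is the gene above the upper quartile on all 4 arrays, and no gene's group means differ by 0.5 or more.

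The signals of the Hox genes were moderate. Gene means over the 4 arrays ran between 4.53 for Hoxd12 and 7.96 for Hoxc9, with a median of 6.30. Over all genes with a single symbol the median of these means was 6.34, so Hox genes were not brighter than other genes. The array medians, which also count probe sets without a symbol, were lower, between 6.04 and 6.06. Of the 37 genes, 20 lay above the array's median on all 4 arrays and 15 below it on all 4. Hoxc9, a regulator of thoracic motor neuron identity, was the only Hox gene above the upper quartile on every array, and no Hox gene was below the lower quartile on every array. The signal of a probe set depends on its probes as well as on the RNA, and detection above background is unknown, so these values do not rank the genes by expression. The 6 ParaHox genes, homeobox relatives known from gut, pancreas and brain, gave means between 3.76 and 6.09, and 21 of the 37 Hox genes had a mean above 6.09. The same limit holds for this comparison, which is between different probe sets. The word code in the working name of this gene set could not be checked, because no other body region was measured. Of the markers for the labelled tissue, all 8 for keratinocytes lay above the upper quartile on all 4 arrays, and Krt9, the keratin of palm and sole epidermis, read 13.4 and 13.3 in noggin and 13.4 and 13.3 in BMP4 epidermis. Some markers of tissue beneath the epidermis were bright too. Above the upper quartile on all 4 arrays were 3 of 10 for skeletal muscle, Tnnt3, Tnni2 and Mylpf, and 2 of 12 for dermal fibroblasts, Dcn and Thy1. Thy1 is also on the list of T cell markers, so its signal need not come from beneath the epidermis.

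Hox genes differed little between noggin and BMP4 epidermis. Limma called 0 of the 37 at an adjusted p below 0.05, as it called 0 of all 35556 probe sets (0.0%), and the smallest adjusted p of a Hox gene was 0.849, for Hoxc12. At an unadjusted p below 0.05 limma gave 1 Hox gene, again Hoxc12, against 4.28% of all genes with a single symbol and 5.61% of all probe sets. The differences ran between -0.36 for Hoxc5 and 0.37 for Hoxa2. In either direction, 0 of the 37 reached 0.5, a size that 2.89% of all genes reached, and for 37 genes 0 is near that share. At smaller sizes the Hox share was the higher one, with 56.8% of Hox genes and 37.3% of all genes at 0.12 or more. The median absolute difference was 0.13 over Hox genes and 0.087 over all genes, and the median spread between arrays of a group (pooled SD) was 0.13 for Hox genes and 0.11 for all genes. The difference was smaller than its own pooled SD for 19 Hox genes, or 51.4%, against 57.0% of all genes. The 95% interval of the difference was not adjusted for the number of genes. It lay within 1 log2 unit of 0 for 36 Hox genes (97.3%), against 95.7% of all genes. Within 0.5 it lay for 21 Hox genes (56.8%), a lower share than the 67.9% of all genes. In bulk samples such as these, fewer cells of a type and less RNA per cell cannot be told apart.

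The lean of the set was small. Of the 37 genes, 24 had a lower mean in noggin epidermis, or 64.9%, against 52.2% of all genes. Their median difference was -0.050, and that of all genes was -0.0064. Leaving out noggin replicate 2 gave a median of -0.012, and leaving out BMP4 replicate 1 gave -0.094. The groups did not overlap for 13 Hox genes, 8 with both noggin arrays below both BMP4 arrays and 5 with both above, where 33.6% of all genes did not overlap, 17.9% below and 15.7% above. The Hox share, 35.1%, is near that background. An exact permutation test of a single gene cannot give a two-sided p below 0.333 with 2 arrays against 2.

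**Figure D2:**
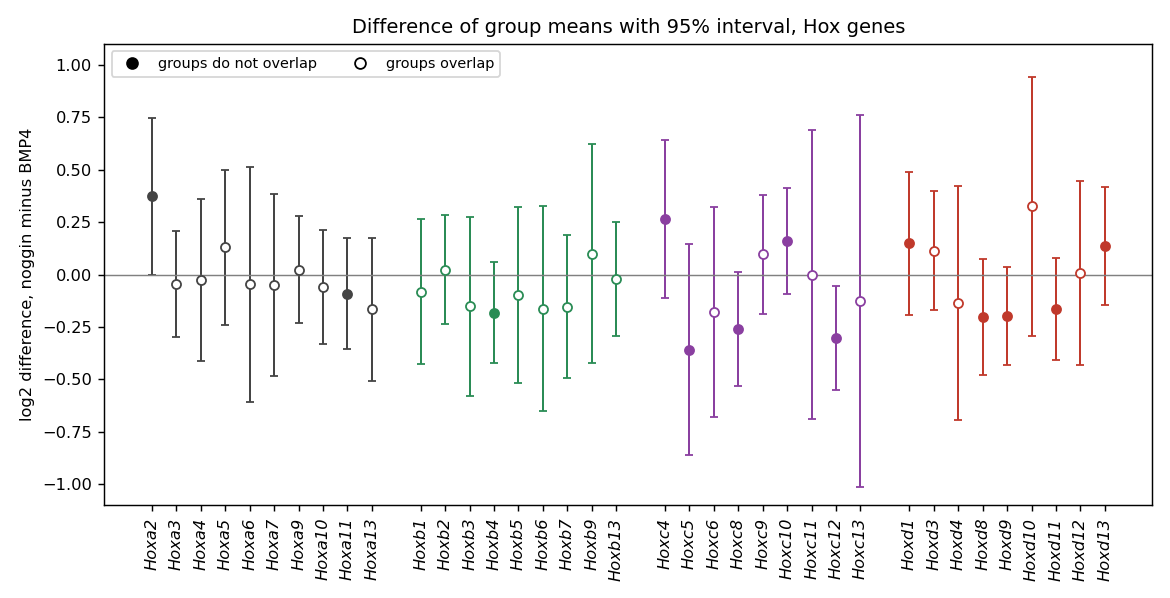
Difference of group means (vertical axis, log2, noggin minus BMP4) with its 95% limma interval for each Hox gene, coloured by cluster; filled points are the 13 genes whose groups do not overlap. Only the interval of Hoxc12 lies wholly on one side of 0, and Hoxc13 has the widest interval.

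**Figure D3:**
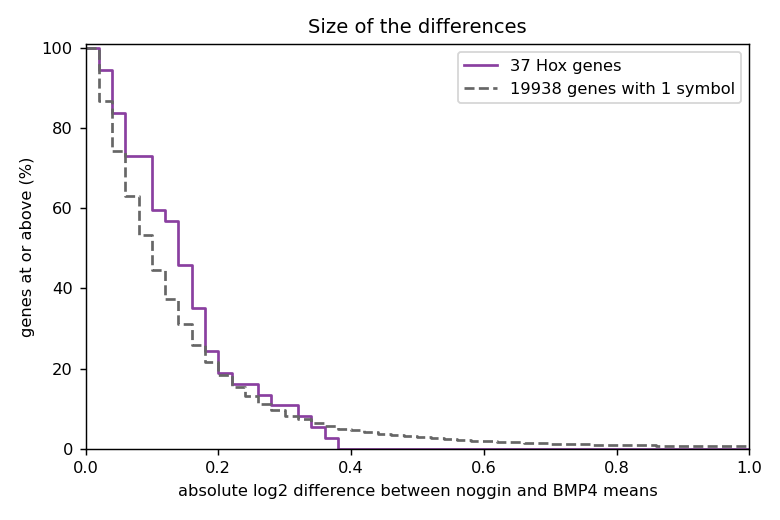
Percentage of genes (vertical axis) whose absolute log2 difference between noggin and BMP4 means is at least the value on the horizontal axis, for the 37 Hox genes (solid) and the 19938 genes with a single symbol (dashed). The Hox line lies above the other between 0.02 and 0.32, for example 56.8% against 37.3% at 0.12. It reaches 0 before 0.4, since the largest difference is 0.37, while 2.89% of all genes lie at 0.5 or beyond. The axis ends at 1, which 0.577% of all genes reach.

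Within Hoxa the largest difference was that of Hoxa2, which patterns the hindbrain and the second pharyngeal arch in the embryo. Hoxa2 read 5.37 and 5.12 in noggin epidermis, against 4.79 and 4.96 in BMP4 epidermis. Both noggin arrays were above both BMP4 arrays, and the difference was 0.37 ± 0.14 (SE; limma adjusted p = 0.874), the largest positive difference of all Hox genes. The promoter of Hoxa2 is shown because Hoxa2 had the largest positive difference and because its window matches motifs of the TALE partners. It lies at chr6:52164782-52165081 on the minus strand of GRCm38.p6, 250 bases before to 50 after the start (RefSeq), and capitals mark a match to the PBX-HOX motif TGATNNAT and one to the MEIS motif TGACAG, each searched on both strands.
Hoxa2 promoter: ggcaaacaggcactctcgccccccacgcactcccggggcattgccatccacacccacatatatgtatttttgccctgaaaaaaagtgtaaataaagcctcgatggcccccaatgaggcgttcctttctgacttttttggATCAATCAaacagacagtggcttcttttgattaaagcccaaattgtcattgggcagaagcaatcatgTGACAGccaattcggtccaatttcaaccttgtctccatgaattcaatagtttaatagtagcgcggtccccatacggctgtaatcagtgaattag
The PBX-HOX letters were found in 4 of 24 Hox promoters (16.7%) and in 8.85% of all 32851 promoters, and the MEIS letters in 2 of 24 (8.33%) and in 19.2%. These are matches of letters in a window, not binding sites.

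The other Hoxa genes lay within 0.17 of equality. Hoxa13, which shapes the digits and marks distal limb fibroblasts, read 6.51 and 6.29 in noggin epidermis, against 6.50 and 6.64 in BMP4 epidermis. The groups overlapped, with noggin replicate 2 the lowest array, and the difference was -0.17 with an interval from -0.51 to 0.17. Hoxa11, which patterns the forearm and shin, read 5.65 and 5.53 in noggin and 5.66 and 5.71 in BMP4 epidermis, without overlap but by only -0.091. Hoxa5, known for its part in lung and airway development, read 6.96 and 7.25 in noggin and 7.02 and 6.93 in BMP4 epidermis, a difference of 0.13 whose groups overlapped. The groups also overlapped for Hoxa3, Hoxa4, Hoxa6, Hoxa7, Hoxa9 and Hoxa10, whose differences lay between -0.059 and 0.024. Hoxa9, a regulator of blood progenitors, lay at the upper quartile line with 7.68 and 7.73 in noggin and 7.74 and 7.63 in BMP4 epidermis, above the quartile on 3 arrays.

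In Hoxb, 7 of 9 genes had a lower mean in noggin epidermis (77.8%, against 52.2% of all genes). Only 1 had groups that did not overlap (11.1%, against 33.6% of all genes). That gene was Hoxb4, known from studies of blood stem cells, at 5.42 and 5.39 in noggin against 5.62 and 5.56 in BMP4 epidermis. Its difference was -0.18 ± 0.088 (SE; limma adjusted p = 0.927). Hoxb6 and Hoxb5 each had a single low array, noggin replicate 1. Hoxb6 read 5.25 and 5.70 in noggin and 5.63 and 5.65 in BMP4 epidermis, and Hoxb5 read 5.61 and 5.97 in noggin and 5.91 and 5.87 in BMP4 epidermis. Hoxb3 had instead its lowest value on noggin replicate 2, at 6.99 and 6.62 in noggin against 6.98 and 6.94 in BMP4 epidermis. Hoxb7 read 7.14 and 6.92 in noggin and 7.11 and 7.25 in BMP4 epidermis, a difference of -0.15 with overlapping groups. The probe set that Hoxb8 and Hoxb7 share, which stands for neither gene, read 5.27 and 5.19 in noggin and 5.33 and 5.57 in BMP4 epidermis. Hoxb1, a gene of the embryonic hindbrain, read 6.93 and 6.97 in noggin and 6.90 and 7.16 in BMP4 epidermis, above the array median throughout. Hoxb13, a posterior gene known from prostate and tail development, read 4.996 and 4.85 in noggin and 4.96 and 4.93 in BMP4 epidermis, close to the lower quartile. Hoxb2 and Hoxb9 differed by 0.023 and 0.10, both with overlapping groups.

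In Hoxc the median absolute difference was 0.18 over 9 genes, against 0.055 in Hoxa, 0.10 in Hoxb and 0.15 in Hoxd. The spread between arrays of a group was also widest there, with a median pooled SD of 0.16, against 0.14 in Hoxa, 0.13 in Hoxb and 0.086 in Hoxd. The groups did not overlap for 5 of 9 Hoxc genes and for 5 of 9 Hoxd genes, 55.6% each, against 33.6% of all genes. Hoxc12, which is expressed with Hoxc13 in hair follicles, read 6.55 and 6.46 in noggin epidermis, against 6.82 and 6.80 in BMP4 epidermis. Its difference was -0.30 with an interval from -0.55 to -0.056, the only Hox interval that leaves out 0 (limma adjusted p = 0.849), and it lay between -0.35 and -0.26 when 1 array was left out. Hoxc5 had the largest negative difference, -0.36, without overlap and with a single high array, BMP4 replicate 2. It read 5.54 and 5.44 in noggin against 5.62 and 6.08 in BMP4 epidermis, and its difference was -0.13 without BMP4 replicate 2. Hoxc8, which sets trunk and brachial identity in spinal cord and skeleton, read 6.23 and 6.37 in noggin and 6.52 and 6.59 in BMP4 epidermis, a difference of -0.26 ± 0.099 (SE; limma adjusted p = 0.874) without overlap.

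Hoxc4, Hoxc9 and Hoxc10 had higher means in noggin. Hoxc4 read 5.61 and 5.46 in noggin against 5.14 and 5.41 in BMP4 epidermis, a difference of 0.26 without overlap in which BMP4 replicate 1 was the low array, and 0.13 without that array. Hoxc10, a gene of hindlimb and lumbar identity, read 6.55 and 6.64 in noggin and 6.47 and 6.40 in BMP4 epidermis, 0.16 higher in noggin without overlap. Hoxc9 read 7.93 and 8.08 in noggin and 7.95 and 7.87 in BMP4 epidermis, and these groups overlapped. Its direct neighbours in the cluster therefore had means on opposite sides, Hoxc8 lower and Hoxc10 higher in noggin, though neither passed the test. Hoxc6 read 6.77 and 7.01 in noggin and 6.87 and 7.26 in BMP4 epidermis, a difference of -0.18 with overlapping groups. Hoxc11, another gene of hindlimb and lumbar levels, had equal group means, 5.60 ± 0.45 in noggin and 5.60 ± 0.16 in BMP4 epidermis (SD, n = 2 each), with the noggin arrays at 5.92 and 5.29.

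Hoxc13, the Hox gene of hair and nail, had the widest spread of the set. It read 6.51 and 6.70 in noggin epidermis, against 7.17 and 6.30 in BMP4 epidermis, so that the highest and the lowest array were both BMP4 arrays. The difference was -0.12 with an interval from -1.01 to 0.76 (limma adjusted p = 0.992), and it was 0.31 without BMP4 replicate 1. Genes of the hair shaft and its regulators that have been studied with Hoxc13 were set beside it. All 18 of 21 listed genes that were measured had a lower mean in noggin, the groups did not overlap for 10 (55.6%, all with noggin below, against 17.9% of all genes), and 0 were called, with a median difference of -0.21. The mean level of the 18 genes was 6.25 and 6.05 on the noggin arrays and 7.09 and 6.53 on the BMP4 arrays. Krt84, a hair and nail keratin, read 5.47 and 5.71 in noggin against 11.6 and 9.09 in BMP4 epidermis. Krt36 read 5.54 and 5.42 in noggin against 9.50 and 6.64 in BMP4 epidermis. Msx2, a homeobox gene needed for the hair shaft, read 6.67 and 6.34 in noggin against 7.63 and 6.92 in BMP4 epidermis, while Krt32 differed by -0.21 and was highest on BMP4 replicate 2. On BMP4 replicate 2, Hoxc13 was the lowest of the 4 arrays although Krt84 was well above both noggin arrays. The part of hair or nail cells in the Hoxc13 values was not tested.

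**Figure D4:**
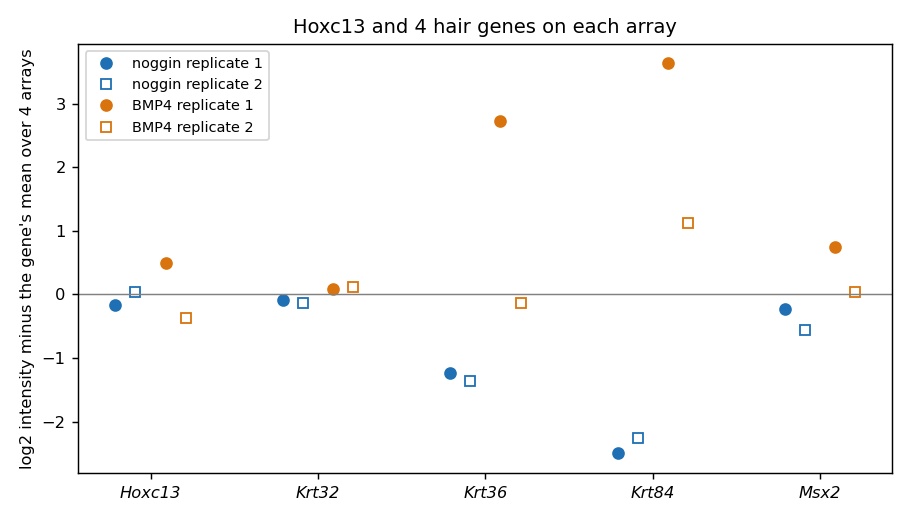
Log2 intensity minus the gene's mean over the 4 arrays (vertical axis) for Hoxc13 and 4 genes of the hair list, with noggin arrays in blue and BMP4 arrays in orange, circles for replicate 1 and squares for replicate 2. BMP4 replicate 1 is the highest array for Hoxc13, Msx2, Krt36 and Krt84, whereas BMP4 replicate 2 is the lowest for Hoxc13 and lies between BMP4 replicate 1 and the noggin arrays for Krt36, Krt84 and Msx2.

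In Hoxd, 4 of 9 genes had a lower mean in noggin epidermis. The groups did not overlap for Hoxd8, Hoxd9 and Hoxd11, with noggin below (33.3%, against 17.9% of all genes), and for Hoxd1 and Hoxd13, with noggin above (22.2%, against 15.7%). Hoxd9 had the tightest replicates of these, at 6.13 and 6.16 in noggin against 6.34 and 6.34 in BMP4 epidermis. Its difference was -0.20 ± 0.085 (SE; limma adjusted p = 0.907). Hoxd8 read 6.30 and 6.34 in noggin and 6.60 and 6.45 in BMP4 epidermis, and Hoxd11, which patterns the forearm and shin with Hoxa11, read 6.18 and 6.25 in noggin and 6.39 and 6.37 in BMP4 epidermis. Hoxd10, which lies between Hoxd11 and Hoxd9, had its mean on the other side. It read 7.02 and 6.65 in noggin and 6.74 and 6.27 in BMP4 epidermis, a difference of 0.33 with overlapping groups and an interval from -0.29 to 0.94 (limma adjusted p = 0.946). Without BMP4 replicate 2 the Hoxd10 difference was 0.093.

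The promoters of Hoxd8, Hoxd9 and Hoxd11 are shown because these genes had similar differences, between -0.20 and -0.16, within one cluster. All are on the plus strand of GRCm38.p6 (RefSeq), Hoxd8 at chr2:74704365-74704664, Hoxd9 at chr2:74697513-74697812 and the downstream of the 2 listed starts of Hoxd11 at chr2:74682073-74682372. Capitals mark a match to TGATNNAT and one to GGCGCC, a GC-rich motif bound by the SMAD proteins of the BMP pathway, both in this Hoxd11 window, while the window at the other start of Hoxd11 holds none of the motifs searched.
Hoxd8 promoter: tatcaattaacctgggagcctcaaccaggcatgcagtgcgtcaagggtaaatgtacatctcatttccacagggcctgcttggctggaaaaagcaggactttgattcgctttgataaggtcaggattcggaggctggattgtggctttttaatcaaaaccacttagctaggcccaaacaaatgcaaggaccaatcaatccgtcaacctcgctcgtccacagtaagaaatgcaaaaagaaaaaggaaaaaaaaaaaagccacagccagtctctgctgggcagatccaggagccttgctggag
Hoxd9 promoter: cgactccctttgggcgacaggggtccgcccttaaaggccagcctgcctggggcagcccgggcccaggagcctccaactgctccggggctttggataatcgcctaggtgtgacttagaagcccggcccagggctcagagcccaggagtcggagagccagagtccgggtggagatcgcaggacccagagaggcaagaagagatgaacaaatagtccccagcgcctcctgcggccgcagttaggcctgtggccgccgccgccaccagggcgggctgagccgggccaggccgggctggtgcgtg
Hoxd11 promoter: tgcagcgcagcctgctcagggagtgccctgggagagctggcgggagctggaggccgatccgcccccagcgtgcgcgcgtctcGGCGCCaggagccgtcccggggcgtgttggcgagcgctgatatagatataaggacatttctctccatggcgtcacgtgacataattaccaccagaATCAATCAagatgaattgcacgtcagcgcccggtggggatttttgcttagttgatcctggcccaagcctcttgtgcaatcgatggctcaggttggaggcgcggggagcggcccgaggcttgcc
GGCGCC was found in 5 of 24 Hox promoters (20.8%) and in 11.9% of all promoters. The median GC content was 57.7% over the Hox promoters and 52.7% over all promoters. The 24 Hox windows cover 22 genes, with Hoxa10 and Hoxd11 at 2 starts each, Hoxb8 included and Hoxc4 as the only Hoxc gene. Neither Hoxd8 nor Hoxd9 held any of the 3 motifs in this window.

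The remaining Hoxd genes lay below the array median on all 4 arrays. Hoxd13, the main digit gene of the cluster, read 5.76 and 5.90 in noggin and 5.65 and 5.74 in BMP4 epidermis, a difference of 0.13 without overlap (limma adjusted p = 0.951). The paralogue 13 genes thus had no common direction, with Hoxd13 higher in noggin and Hoxa13, Hoxb13 and Hoxc13 lower, and none passed the test. Hoxd1, which acts in pain-sensing neurons of the mouse, read 4.83 and 4.57 in noggin and 4.54 and 4.56 in BMP4 epidermis. It and Hoxd12, at 4.72 and 4.35 in noggin and 4.58 and 4.48 in BMP4 epidermis, were below the lower quartile on 3 of 4 arrays. Hoxd3 and Hoxd4 had overlapping groups and differences of 0.11 and -0.14.

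Read by paralogue number, genes 5 to 8 had lower means in noggin for 9 of 10, with Hoxa5 as the exception and a median difference of -0.16. The groups did not overlap for 3 of these 10, all with noggin below (background 17.9%). Genes 1 to 4 had lower means for 6 of 11 (54.5%), with a median of -0.026. Genes 9 to 13 had them for 9 of 16 (56.25%), with a median of -0.011. Both shares are near that of all genes. The median of genes 5 to 8 lay between -0.25 and -0.12 when 1 array was left out, largest without noggin replicate 2. The Hoxd median of 0.0053 became -0.12 when noggin replicate 1 was left out and 0.12 when noggin replicate 2 was. These divisions were not tested against each other.

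Among the TALE partners of HOX proteins, Meis2 differed more than any Hox gene, and none was called. Of 9 listed genes, 8 were measured, 5 had a lower mean in noggin, and for 4 the noggin arrays lay below the BMP4 arrays without overlap (background 17.9%). Limma gave 2 of the 8 at an unadjusted p below 0.05, against 4.28% of all genes with a single symbol, and the list was chosen with earlier results known. Meis1, a HOX cofactor with a role in limb patterning and blood stem cells, read 8.63 and 8.56 in noggin epidermis, against 8.96 and 8.92 in BMP4 epidermis. Its difference was -0.35 with an interval from -0.59 to -0.11 (limma adjusted p = 0.808), and it lay between -0.38 and -0.31 when 1 array was left out. Meis2 read 5.93 and 6.03 in noggin against 6.69 and 6.36 in BMP4 epidermis, a difference of -0.54 ± 0.15 (SE; limma adjusted p = 0.830). Meis3 read 6.36 and 6.56 in noggin and 6.69 and 6.68 in BMP4 epidermis, and Pknox1 6.57 and 6.63 in noggin and 6.69 and 6.81 in BMP4 epidermis, both without overlap. All 3 Meis genes therefore had lower means in noggin without overlap, whereas the groups overlapped for the PBX genes measured and for Pknox2. The median difference of the 8 genes was -0.16.

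**Figure D5:**
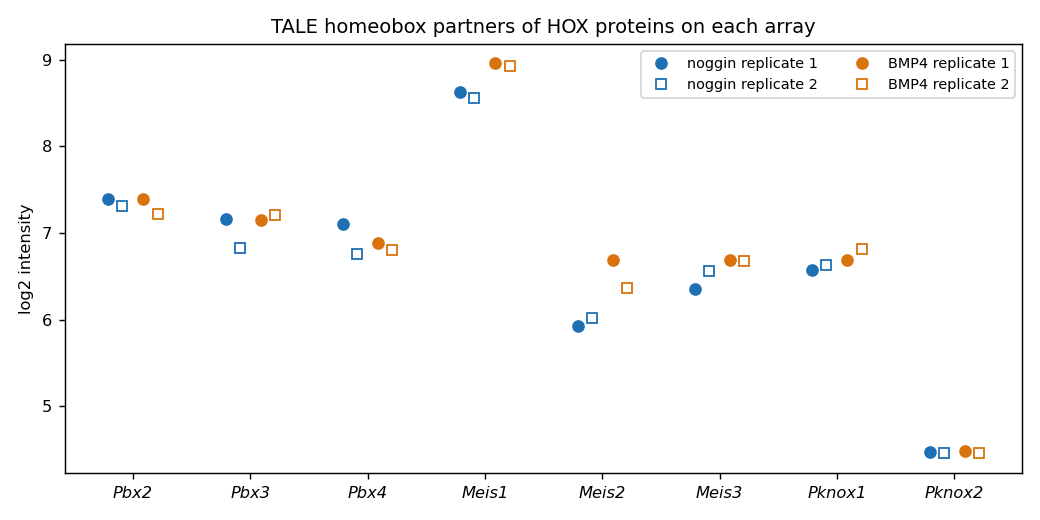
Log2 intensity (vertical axis) of the 8 measured TALE homeobox partners on the 2 noggin arrays (blue) and 2 BMP4 arrays (orange), circles for replicate 1 and squares for replicate 2. For Meis1, Meis2, Meis3 and Pknox1 both noggin arrays lie below both BMP4 arrays.

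Genes inside and beside the clusters were measured for 14 of 22 listed, with 0 called and a median difference of 0.067. The groups did not overlap for 1 gene on each side, 7.14% each, against 17.9% of all genes with noggin below and 15.7% above. Among them are probe sets on the precursors of microRNAs that lie between the Hox genes and that are known to repress Hox messages. The mature 5p sequences of the miR-10 and miR-196 families are shown because each family shares 1 seed across clusters, with the seed (bases 2 to 8) in capitals (RefSeq, GRCm38.p6).
miR-10a-5p (Mir10a, Hoxb cluster): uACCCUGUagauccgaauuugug
miR-10b-5p (Mir10b, Hoxd cluster): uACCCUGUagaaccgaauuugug
miR-196a-5p (Mir196a-1, Hoxb cluster, and Mir196a-2, Hoxc cluster): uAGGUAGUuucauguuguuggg
miR-196b-5p (Mir196b, Hoxa cluster): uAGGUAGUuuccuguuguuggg
The array reads the precursor and not the mature microRNA. Mir615, in the Hoxc cluster, belongs to neither family and read 7.74 and 7.72 in noggin and 7.58 and 7.96 in BMP4 epidermis, with overlapping groups. Mir196a-2, which lies between Hoxc10 and Hoxc9, read 4.58 and 4.17 in noggin against 4.71 and 5.03 in BMP4 epidermis, a difference of -0.50 without overlap (limma adjusted p = 0.891) that was -0.29 without noggin replicate 2. It is dim, below the lower quartile on both noggin arrays and on BMP4 replicate 1. Mir196b, between Hoxa10 and Hoxa9, read 6.84 and 7.24 in noggin and 7.28 and 7.18 in BMP4 epidermis, and Mir10b read 3.74 and 3.47 in noggin and 3.43 and 3.50 in BMP4 epidermis. Mtx2, which flanks the Hoxd cluster, had overlapping groups and a difference of 0.20.

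Limb identity factors were measured for 7 of 8 genes, with lower means in noggin for 5, no overlap for 3, all below (42.9%, against 17.9% of all genes), and 0 called. Their median difference was -0.069, and 0.0058 without noggin replicate 2. Tbx4, the hindlimb T-box factor, read 5.17 and 5.31 in noggin and 5.37 and 5.46 in BMP4 epidermis. Tbx5, its forelimb counterpart, read 5.12 and 4.83 in noggin and 4.77 and 4.85 in BMP4 epidermis. Lmx1b, which specifies dorsal limb and nails, read 6.50 and 6.31 in noggin and 6.54 and 6.58 in BMP4 epidermis, and Hand2 differed by -0.10. Of the 6 ParaHox genes, 5 had lower means in noggin (83.3%, against 52.2% of all genes), and the median difference was -0.057. The groups overlapped for all 6, where 33.6% of all genes did not overlap. The Polycomb and trithorax proteins that hold Hox genes silent or active were measured for 32 of 34 genes, of which 18 had lower and 14 higher noggin means, with a median of -0.012 and 0 called. In these, Kmt2d, a histone methyltransferase of active genes, differed by 0.21, Phc3 by 0.18, Ezh2, the methyltransferase of Polycomb repression, by -0.22 and Pcgf2 by -0.27.

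Averages of some marker lists of other cell types moved more between arrays than the Hox average did. The 10 skeletal muscle markers averaged 8.35 and 7.58 on the noggin arrays against 6.84 and 7.80 on the BMP4 arrays, and the 6 Langerhans cell markers averaged 8.18 and 8.21 on the noggin arrays against 7.002 and 7.86 on the BMP4 arrays. All 10 muscle and all 6 Langerhans cell markers had higher means in noggin, and 0 were called. Both noggin arrays were above both BMP4 arrays for 1 of 10 muscle markers and for 5 of 6 Langerhans cell markers (83.3%), against 15.7% of all genes. The 12 dermal fibroblast markers come from a cell type that expresses Hox genes strongly in limb skin. They averaged 7.63 and 7.71 on the noggin arrays against 7.32 and 7.80 on the BMP4 arrays. Of the 12, 8 had a lower mean in noggin (66.7%, against 52.2% of all genes). The groups overlapped for all 12, where 33.6% of all genes did not overlap. The 37 Hox genes averaged 6.15 and 6.10 on the noggin arrays against 6.17 and 6.16 on the BMP4 arrays. BMP4 replicate 1 was the lowest array for these 3 marker lists and, by a small margin, the highest for the Hox genes, and the part of these cells in the Hox values was not tested. The 6 endothelial markers averaged 6.34 and 6.18 on the noggin arrays against 5.99 and 6.27 on the BMP4 arrays, and the 4 Schwann cell markers measured 7.32 and 6.99 against 7.05 and 7.25. Group averages overlapped or lay close for sweat gland, at 7.48 and 7.21 in noggin and 7.34 and 7.34 in BMP4, for melanocytes, at 5.83 and 5.85 in noggin and 5.72 and 5.73 in BMP4, and for keratinocytes, at 12.0 and 12.1 in noggin and 12.2 and 12.1 in BMP4. Marker values have no true 0 on this scale, and 1 melanocyte and 1 hair marker lay below the lower quartile on all arrays. The palmoplantar list, with Krt6a and Krt16, averaged 10.4 and 10.5 on the noggin arrays against 11.1 and 10.8 on the BMP4 arrays, and the T cell list 7.19 and 7.46 against 6.70 and 7.09 in the same order. The 7 hair shaft and root sheath markers measured averaged 5.56 and 5.40 on the noggin arrays against 6.84 and 6.33 on the BMP4 arrays.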

How the data were processed

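RNA from laser-captured hindpaw epidermis was amplified by the NuGEN pico protocol and hybridised to 4 Affymetrix arrays, each a pool of 3 animals, per the labels' protocols. The authors deposited log2 intensities per probe set, made with Affymetrix Expression Console and RMA, per the submitters' processing notes, which give no version or settings. RMA equalises the distributions of the arrays and shrinks differences of dim probe sets. The number of arrays limits the precision. No scanner file, scan date or batch was used here.

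All 35556 probe sets were fitted with limma 3.58.1 in R 4.3.3 (a single group term, two-sided tests, 2 residual and 2.08 prior degrees of freedom), with p-values adjusted by Benjamini-Hochberg over all probe sets and a threshold of 0.05. Code was tested on simulated data. Of the probe sets, 21789 have 1 symbol, 1621 several and 12146 none. For genes with several probe sets, the one of highest mean over the 4 arrays was used. Errors are SDs of 2 arrays or limma standard errors.

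The Hox genes, the other lists, the divisions by paralogue number and the alternatives were chosen with earlier results of these data known. Array values were to be given for Hox genes above the upper quartile on all arrays, the 3 largest differences each way, the paralogue 13 genes and genes with several probe sets (there were 0); further Hox genes were added after their values were seen, as were the motifs and the choice of promoters. Up to 4 genes of smallest p were named from each other list, and Mir615 and the markers Krt9, Krt6a, Krt16, Tnnt3, Tnni2, Mylpf, Dcn and Thy1 were added after their values were seen. The labels do not say that the pools of different lines share a litter, day or batch. Plots used matplotlib 3.10.9 under Python 3.11.15.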

Additional observations from a re-analysis of the deposited data

How the results depend on the processing

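Limma called 0 probe sets and 0 Hox genes with the replicate number as a block, with a trend or robust prior, without dim probe sets, with median centring, a further quantile normalization or cyclic loess, with a gene's probe sets averaged, and without any 1 array. Without adjustment, 1994 probe sets and 1 Hox gene had a p below 0.05. In this balanced design the replicate block cannot change a difference, so the directions of the 37 genes and their median of -0.050 had to stay. With the block, the smallest adjusted p of a Hox gene was 0.988 (limma). The trend and robust priors cannot change a difference either, nor can averaging, since each Hox gene has 1 probe set. The labels tie the replicate numbers to nothing. The correlation between deviations of noggin and BMP4 arrays of the same number was -0.12. Deviations of the arrays in a group mirror each other, so every replicate number gives this same value. It therefore cannot show whether arrays of the same number share a litter, day or batch. Leaving out dim probe sets dropped Hoxd1 and Hoxd12. The count of Hox genes with a lower mean in noggin lay between 20 and 24 over these settings.

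Among the normalizations, Hoxc11 alone turned direction, at 0.0019 after quantile normalization and 0.017 after cyclic loess, against -0.00081. Without 1 array, which assumes that a lone array varies like the others, the median over Hox genes lay between -0.094 and -0.012, and 18 of 37 genes kept their direction in every such fit (47.3% of all genes did). The other 19 changed sign. Their ranges were -0.096 to 0.0053 for Hoxa3, -0.18 to 0.13 for Hoxa4, -0.012 to 0.27 for Hoxa5, -0.31 to 0.22 for Hoxa6, -0.24 to 0.13 for Hoxa7, -0.028 to 0.075 for Hoxa9 and -0.12 to 0.0044 for Hoxa10. In Hoxb they were -0.21 to 0.050 for Hoxb1, -0.036 to 0.082 for Hoxb2, -0.34 to 0.032 for Hoxb3, -0.28 to 0.082 for Hoxb5, -0.39 to 0.062 for Hoxb6, -0.11 to 0.31 for Hoxb9 and -0.095 to 0.051 for Hoxb13. In Hoxc and Hoxd they were -0.37 to 0.021 for Hoxc6, -0.32 to 0.32 for Hoxc11, -0.56 to 0.31 for Hoxc13, -0.40 to 0.12 for Hoxd4 and -0.18 to 0.19 for Hoxd12. Why these values moved was not tested. With 2 arrays a group and detection unknown, small differences of dim genes such as Hoxd1, Hoxd3 and Hoxd12 cannot be resolved.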
